A study of Homo sapiens with 6 samples.

Results

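The genes described here encode core subunits of the SIN3-HDAC corepressor complex, and they were measured in K562 cells carrying an empty plasmid, MXD3 or STIM1::MXD3. The 10 genes, SIN3A, SIN3B, HDAC1, HDAC2, SAP30, SAP18, SUDS3, RBBP4, RBBP7 and BRMS1, were chosen by name as the complex that the amino-terminal domain of MXD3 recruits. All 10 were found by their NCBI Gene identifiers among the 25702 identifiers of the count tables, and all 10 were among the 15431 genes that passed the filter on low counts. K562 is an established myeloid leukemia cell line, and the samples carry no other treatment in their labels. The empty vector control (EV), MXD3 and STIM1::MXD3 groups each had 2 libraries of poly A RNA, 6 in all, numbered replicate 1 and replicate 2 within a group. Per the methods of the study, the constructs were carried by pCMV-HA plasmids and delivered by nucleofection, so a strong viral promoter drove them in whichever cells took up the plasmid. The labels give neither a sampling time nor a share of cells transfected. The methods of the study give a general time after transfection for expression assays. Its reporting summary states that most K562 cells take up plasmid by nucleofection, as measured by a fluorescent protein expressed from another vector, LeGO-iG2. A count reflects the whole population of cells. In bulk RNA, fewer cells expressing a gene and less RNA per cell cannot be told apart.

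SIN3 proteins are scaffolds with no enzyme activity of their own. Their paired amphipathic helix domains hold short repression domains of DNA-binding factors, among them the MXD proteins, which bind DNA as partners of MAX. The scaffold carries the histone deacetylases HDAC1 and HDAC2, which remove acetyl groups from histone tails near the bound site and lower transcription there. In STIM1::MXD3, the start of STIM1 takes the place of the MXD3 region that includes this repression domain, while the DNA-binding domain is kept. The comparisons here therefore asked whether the transcripts of the recruited complex differed between cells with MXD3, cells with the fusion and cells with neither.

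The libraries held between 53048343 and 63835779 counts, of which the 10 genes together took 0.121% to 0.133%. The constructs matched the labels. MXD3 was at 10.5 CPM (counts scaled to the library total and by TMM) in EV, 2342 in MXD3 and 1912 in STIM1::MXD3, and STIM1 was at 190 CPM in EV, 173 in MXD3 and 462 in STIM1::MXD3. STIM1, although 1.28 ± 0.14 higher with the fusion than with EV on the log2 scale, was not called without the replicate block (edgeR adjusted p = 0.359), and was called with it (adjusted p = 4.27e-07). K562 markers were present, with the erythroid regulator GATA1 at a mean of 274 CPM and the embryonic globin HBE1 at 4168 CPM, while the B cell gene MS4A1 had no count in any library. The leukocyte genes PTPRC and LYZ were at means of 176 and 24.4 CPM. The replicate number moved many genes: 4499 of 15431 genes (29.2%) differed between replicates 2 and 1 over the 3 groups (edgeR, adjusted p under 0.05), including 8 of 10 K562 markers. The plasmid comparisons below carry no term for it unless stated.

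All 10 transcripts were well expressed. By mean CPM they stood between the 51.9th percentile of tested genes (SAP30) and the 96.6th (RBBP4). To compare genes with each other, CPM was divided by the length of the canonical transcript in kilobases. HDAC1 was the highest at 124 ± 5.33 CPM per kilobase (SD, n = 6 libraries), followed by RBBP7 at 70.9 ± 3.01 and RBBP4 at 39.8 ± 2.58, and the ranges of these 3 over the libraries did not overlap. BRMS1 (25.6 ± 2.89) and SAP18 (25.5 ± 1.44) could not be separated beyond their spread, nor could HDAC2 (20.2 ± 0.485), SAP30 (19.5 ± 2.21) and SUDS3 (19.3 ± 1.11). The SAP30 range, 18.2 to 23.9, also reached into those of BRMS1 and SAP18. The scaffolds were the lowest per length, SIN3A at 11.3 ± 1.35 and SIN3B at 10.8 ± 1.26 CPM per kilobase, again within each other's spread. This order depended on the length used: HDAC2 was rank 6 with the canonical transcript, rank 8 with all annotated exons merged and rank 3 with the coding length, and RBBP4 was rank 1 with the coding length. The scaffolds held ranks 9 and 10 with each of the 3 lengths.

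**Figure D1:**
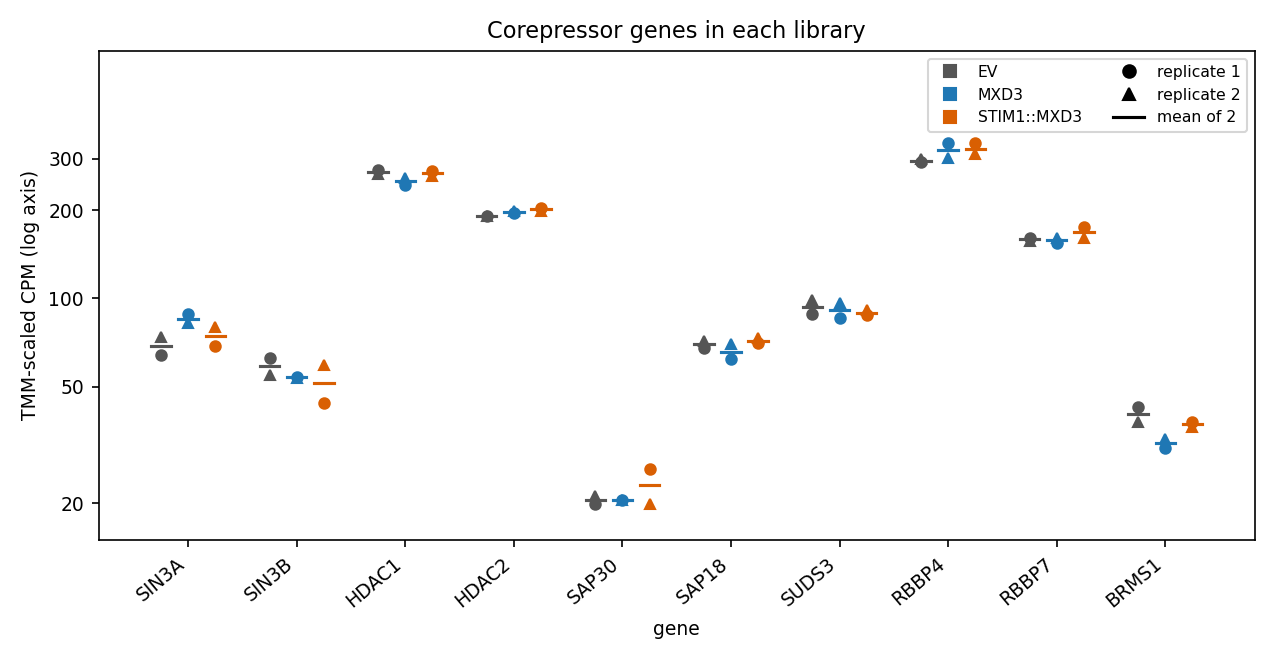
TMM-scaled CPM on a log axis for each of the 10 genes, with 1 point per library (circles replicate 1, triangles replicate 2), colored by plasmid, and a bar at the mean of 2. Points of a gene lie close together beside the distances between genes. SIN3A has both MXD3 libraries above the other 4, and BRMS1 has both MXD3 libraries below the other 4. CPM is not divided by length here, so heights are compared within a gene.

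SIN3A (Gene ID 25942; GRCh37 chromosome 15, 75661720 to 75748183, minus strand, 21 exons) is the main scaffold. It was at 63.9 and 73.9 CPM in the EV libraries, 88.4 and 82.2 in MXD3, and 68.6 and 79.8 in STIM1::MXD3. Both MXD3 libraries were above all others, and the EV and STIM1::MXD3 ranges overlapped. SIN3B (Gene ID 23309; chromosome 19, 16940209 to 16991164, plus strand, 19 exons), its paralog, was at 62.6 and 54.6 CPM in EV, 54.0 and 53.6 in MXD3, and 43.9 and 59.2 in STIM1::MXD3. The STIM1::MXD3 libraries of SIN3B were the lowest and the second highest of the 6, so the fusion group spanned most of its range. Of the canonical exon bases of SIN3A, 13.2% lie under a long noncoding RNA on the opposite strand, and the use of strand in counting is not given in the sources used here.

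HDAC1 (Gene ID 3065; chromosome 1, 32757684 to 32799236, plus strand, 14 exons) and HDAC2 (Gene ID 3066; chromosome 6, 114254192 to 114332472, minus strand, 14 exons) are the catalytic subunits, which also serve the NuRD and CoREST complexes. HDAC1 was at 275 and 266 CPM in EV, 244 and 258 in MXD3, and 273 and 262 in STIM1::MXD3, so that MXD3 was the lower group throughout. HDAC2 was at 191.8 and 191.6 CPM in EV, 196 and 198 in MXD3, and 204 and 199 in STIM1::MXD3. The whole range of HDAC2 over 6 libraries was 1.07-fold, the narrowest of the 10 genes.

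RBBP4 (Gene ID 5928; chromosome 1, 33116743 to 33151812, plus strand, 12 exons) and RBBP7 (Gene ID 5931; chromosome X, 16857406 to 16888485, minus strand, 12 exons) are WD40-repeat proteins that bind histones and are shared with NuRD, the Polycomb complex PRC2 and chromatin assembly and remodelling complexes. RBBP4 was at 291 and 299.7 CPM in EV, 339 and 301 in MXD3, and 338 and 311 in STIM1::MXD3. RBBP7 was at 160.3 and 157 CPM in EV, 155 and 161 in MXD3, and 175 and 161 in STIM1::MXD3. Both genes were above EV in both fusion libraries, by little in replicate 2. Counts of RBBP4 are less certain than those of the others. SYNC overlaps 27.4% of its canonical exon bases on the opposite strand, and 7 annotated pseudogenes are named after RBBP4. SYNC itself was at no more than 0.684 CPM, which does not show whether reads in the overlap were left out of both genes. TXLNG, at 39.2 to 56.4 CPM, overlaps 7.85% of those of RBBP7.

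The remaining subunits attach to the scaffold. SAP30 (Gene ID 8819; chromosome 4, 174291120 to 174298683, plus strand, 4 exons), which helps to hold SIN3 and the deacetylases together, was at 19.9 and 21.1 CPM in EV, 20.46 and 20.54 in MXD3, and 26.2 and 19.9 in STIM1::MXD3. Only replicate 1 of the fusion stood apart. SAP18 (Gene ID 10284; chromosome 13, 21714258 to 21723236, plus strand, 4 exons), a ubiquitin-fold protein that also belongs to a splicing-associated complex, was at 67.9 and 71.4 CPM in EV, 61.9 and 69.6 in MXD3, and 70.4 and 73.1 in STIM1::MXD3. SUDS3 (Gene ID 64426; chromosome 12, 118814360 to 118855838, plus strand, 12 exons), which is needed for full deacetylase activity of the complex, was at 88.4 and 98.5 CPM in EV, 85.5 and 96.8 in MXD3, and 87.8 and 91.1 in STIM1::MXD3. For SUDS3, replicate 2 was above replicate 1 in every group. BRMS1 (Gene ID 25855; chromosome 11, 66104804 to 66112596, minus strand, 10 exons), known as a suppressor of metastasis, was at 42.6 and 37.9 CPM in EV, 30.8 and 33.2 in MXD3, and 37.9 and 36.5 in STIM1::MXD3. Both MXD3 libraries of BRMS1 were the lowest of the 6. Pseudogenes are annotated for SAP18 (3), HDAC1 (2), SAP30 (1) and SUDS3 (1) as well. Of these and those of RBBP4, 0 were among the identifiers counted. Reads from such copies could have been counted with the parent gene or left out, though their sequences were not compared here.

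With MXD3, no subunit transcript passed the test against EV. The number called was 0 of 10 by edgeR's quasi-likelihood test with Benjamini-Hochberg adjustment over all 15431 genes and 0 of 10 by DESeq2, beside 0.00648% of all genes in edgeR, which was the MXD3 gene itself, and 0.0194% in DESeq2. At an unadjusted p under 0.05, 1 of 10 genes was found (BRMS1), beside 1.86% of all genes. BRMS1 was 0.794-fold its EV level (log2 fold change -0.33 ± 0.13, SE, n = 2 against 2; 95% interval of the fold 0.638 to 0.990; edgeR unadjusted p = 0.0425, adjusted p = 1.00). It was lower with MXD3 in both same-numbered pairs, and its adjusted p lay between 0.119 and 1.00 over 14 other settings. SIN3A was 1.24-fold its EV level (log2 fold change 0.31 ± 0.14; interval of the fold 0.983 to 1.56; edgeR unadjusted p = 0.0646, adjusted p = 1.00). It was higher in both pairs, with an adjusted p between 0.117 and 1.00 over the same settings. With the replicate number as a block the number called was still 0 of 10, beside 0.292% of all genes in edgeR and 1.54% in DESeq2, and BRMS1 and SIN3A were the 2 of 10 genes with an unadjusted p under 0.05 in edgeR (0.00707 and 0.00576, adjusted p = 0.179 and 0.166), beside 13.9% of all genes. The scaffold and its associated factor thus showed the 2 largest differences among the 10 genes, in opposite directions, and neither passed the adjustment over all genes. The other 8 genes had log2 fold changes from -0.12 (SIN3B) to 0.11 (RBBP4).

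The 2 groups did not overlap for 6 of 10 genes, beside 31% of all genes tested. SIN3A, HDAC2 and RBBP4 had both MXD3 libraries above both EV libraries, and SIN3B, HDAC1 and BRMS1 had both below. The median log2 fold change of the 10 genes was -0.02, with 3 of 10 above 0, beside 0.0011 and 50.2% for all genes. With 2 libraries a group, an exact permutation test of a single value cannot go below p = 0.333.

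With the fusion, no subunit transcript passed the test against EV either. The count was 0 of 10 by edgeR, beside 0.00648% of all genes, and 0 of 10 by DESeq2, beside 0.0194%. It was also 0 of 10 at an unadjusted p under 0.05, beside 0.953%. With the replicate number as a block these counts were again 0 of 10, beside 0.0194% of all genes adjusted and 8.5% unadjusted in edgeR and 0.123% adjusted in DESeq2. RBBP4 had the smallest p, with a fold of 1.10 (log2 fold change 0.14 ± 0.13; interval of the fold 0.895 to 1.35; edgeR unadjusted p = 0.313, adjusted p = 1.00). SIN3A was 1.08-fold its EV level, with an interval of 0.855 to 1.36, and BRMS1 was 0.924-fold, with an interval of 0.742 to 1.15. SIN3B and SAP30 had larger estimates (log2 fold changes -0.18 ± 0.17 and 0.17 ± 0.17), but both turned sign without replicate 1 of the fusion, to 0.02 and -0.04. The groups did not overlap for 4 of 10 genes (HDAC2, RBBP4 and RBBP7 higher, BRMS1 lower), beside 22% of all genes. The median log2 fold change of the 10 genes was 0.06, with 6 of 10 above 0, beside 0.0096 and 52.1% of all genes.

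Between the fusion and MXD3, set directly against each other, no subunit transcript passed the test. The count was 0 of 10 by edgeR, beside 0% of all genes, and 0 of 10 by DESeq2, beside 0.00648%. It was also 0 of 10 at an unadjusted p under 0.05, beside 1.01%. With the block they were 0 of 10 in edgeR, beside 0.00648% of all genes adjusted and 6.49% unadjusted. In DESeq2 with the block, HDAC1, HDAC2, RBBP4 and RBBP7 had an adjusted p and none was called, beside 0.0324% of all genes tested. DESeq2 gave no adjusted p there for SIN3A, SIN3B, SAP30, SAP18, SUDS3 and BRMS1, so these could not be called. BRMS1 was 1.16-fold higher with the fusion (log2 fold change 0.22 ± 0.13; interval of the fold 0.933 to 1.45; edgeR unadjusted p = 0.149, adjusted p = 1.00) and SIN3A was 0.870-fold (log2 fold change -0.20 ± 0.14; interval 0.691 to 1.10; edgeR unadjusted p = 0.195, adjusted p = 1.00). The libraries of the groups did not overlap for 6 of 10 genes, beside 21.1% of all genes: HDAC1, HDAC2, SAP18, RBBP7 and BRMS1 were higher with the fusion and SIN3A was lower. In no plasmid comparison was the share of the 10 genes without overlap tested against that of all genes. The 2 sets also differed in calls between replicate numbers, with 0 of 10 genes called beside 29.2% of all genes. The median log2 fold change of the 10 genes was 0.06, with 7 of 10 above 0, beside 0.0083 and 52.1%. MXD3 libraries enter this comparison and the one against EV, so their values are given side by side and not as separate evidence.

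**Figure D2:**
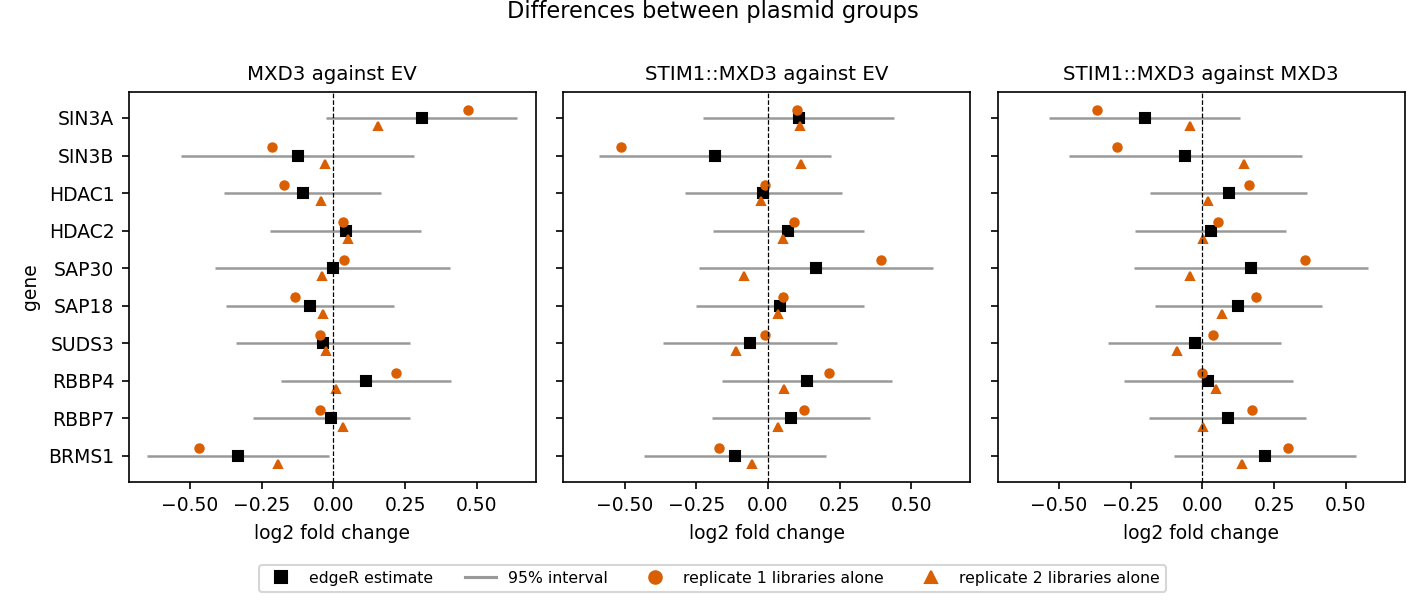
Log2 fold change of each gene in the 3 plasmid comparisons. Black squares are the edgeR estimates, gray lines their 95% intervals, and orange circles and triangles the differences between the libraries numbered 1 and numbered 2 alone. Every interval crosses 0 except that of BRMS1 with MXD3, whose adjusted p was 1.00, and the replicate 1 pair lies farther from 0 than the replicate 2 pair for SIN3A and BRMS1 with MXD3.

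The 95% intervals of the fold ran over the 10 genes from 0.638-fold to 1.56-fold for MXD3 against EV, from 0.664 to 1.49 for the fusion against EV, and from 0.691 to 1.49 for the fusion against MXD3. They were narrower than for most genes, with a median distance from the log2 estimate to the end of its interval of 0.30 for the 10 genes and 0.52 for all genes in each comparison.

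The paralog pairs offer a measure within a library that needs no scaling between libraries. Raw counts of SIN3A were 1.02 and 1.35 times those of SIN3B in EV, 1.64 and 1.54 times in MXD3, and 1.56 and 1.35 times in STIM1::MXD3. The scaffold ratio was thus above both EV values in both MXD3 libraries, while a fusion library and an EV library nearly coincided. The ratio of HDAC1 to HDAC2 was 1.43 and 1.39 in EV, 1.24 and 1.30 in MXD3, and 1.34 and 1.32 in STIM1::MXD3. For the deacetylases the 3 groups did not overlap, with EV highest and MXD3 lowest. The ratios were chosen after their values were seen, and how often other gene pairs separate the groups in this way was not tested. RBBP4 counts were 1.82 and 1.90 times those of RBBP7 in EV, 2.18 and 1.87 in MXD3, and 1.934 and 1.930 in STIM1::MXD3. None of these ratios could pass an exact test at this group size, and genes differ in length, so a ratio above 1 does not say that more molecules of the first gene were present.

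**Figure D3:**
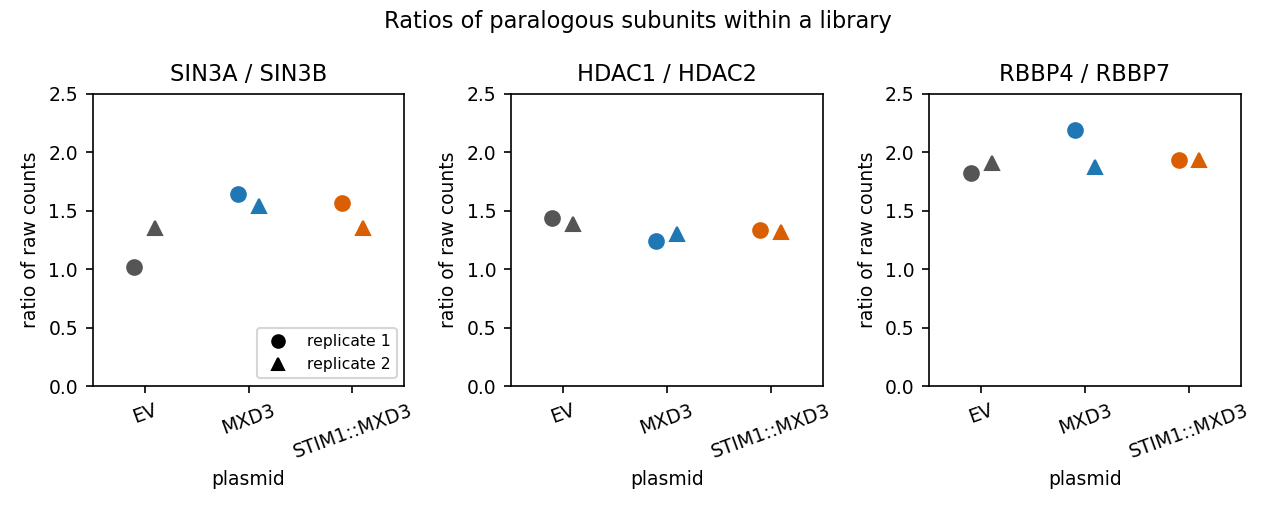
Ratio of raw counts of paralogous subunits in each library, with plasmids on the horizontal axis and circles and triangles for replicates 1 and 2. SIN3A to SIN3B runs from 1.02 to 1.64, HDAC1 to HDAC2 from 1.24 to 1.43, and RBBP4 to RBBP7 from 1.82 to 2.18.

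The replicate number gave more calls over all genes than either plasmid, yet no subunit gene passed its test. In a fit with group and replicate number, 0 of 10 genes differed between replicates 2 and 1 (edgeR, adjusted p under 0.05), beside 29.2% of all genes, 13.1% higher and 16.1% lower. The count was also 0 of 10 by DESeq2, beside 27.9%, and 0 of 10 at an unadjusted p under 0.05 in edgeR, beside 39.8%. The median log2 difference of the 10 genes was -0.0081, with 4 of 10 above 0, beside 0.0062 and 50.7% of all genes. SUDS3 had the smallest p (log2 difference 0.13 ± 0.07, edgeR adjusted p = 0.184) and was higher in replicate 2 in all 3 groups, by 0.16, 0.18 and 0.05 on the log2 scale in EV, MXD3 and STIM1::MXD3. It passed the threshold when libraries were scaled by total counts alone (log2 difference 0.20, edgeR adjusted p = 0.0434). SAP18 was the only other gene with 1 direction in every group, higher by 0.07, 0.17 and 0.05 in the same order, so 2 of 10 genes were higher in all 3 groups and 0 of 10 lower, beside 28.6% and 30.2% of all genes. SIN3A was higher in replicate 2 in EV and the fusion (0.21 and 0.22) and lower in MXD3 (-0.10). Intervals for the 10 genes ran from 0.792-fold to 1.22-fold.

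**Figure D4:**
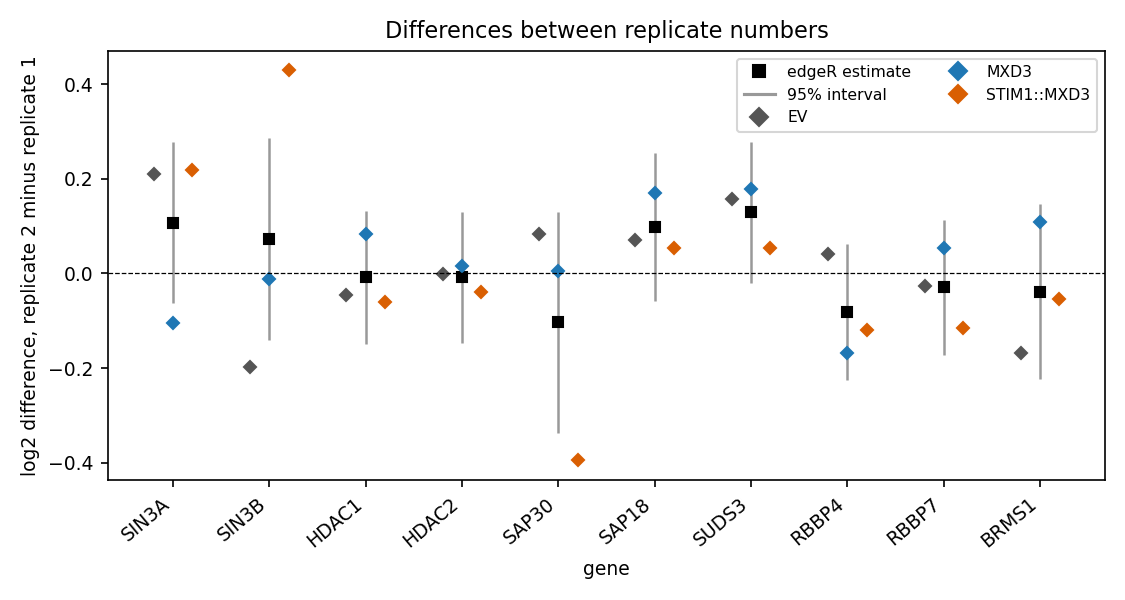
Log2 difference of replicate 2 minus replicate 1 for each gene, with diamonds for the 3 plasmid groups, black squares for the edgeR estimate over all groups and gray lines for its 95% interval. All 10 intervals include 0, and SIN3B and SAP30 have the widest scatter, set by the fusion libraries.

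Variation over the 6 libraries, whatever its source, fell into a quiet and a more variable set. The SD of log2 CPM was 0.03 for HDAC2, and among 10250 genes whose mean CPM was 5 or more, 0.390% had a smaller SD. RBBP7 (SD 0.06, 3.83% of genes smaller), HDAC1 (0.06, 4.68%), SUDS3 (0.08, 10.9%), SAP18 (0.08, 11.9%) and RBBP4 (0.09, 16.0%) also varied little. SAP30, BRMS1, SIN3A and SIN3B had SDs of 0.15 to 0.17, with 46.3% to 56.4% of genes smaller. The deacetylases and histone-binding subunits were thus among the steadier transcripts, and the scaffolds, SAP30 and BRMS1 were close to the median of these 10250 genes, 0.16. Highly counted genes tend to have a small SD, and 4 of the 6 quiet genes were above the 90th percentile of mean CPM.

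**Figure D5:**
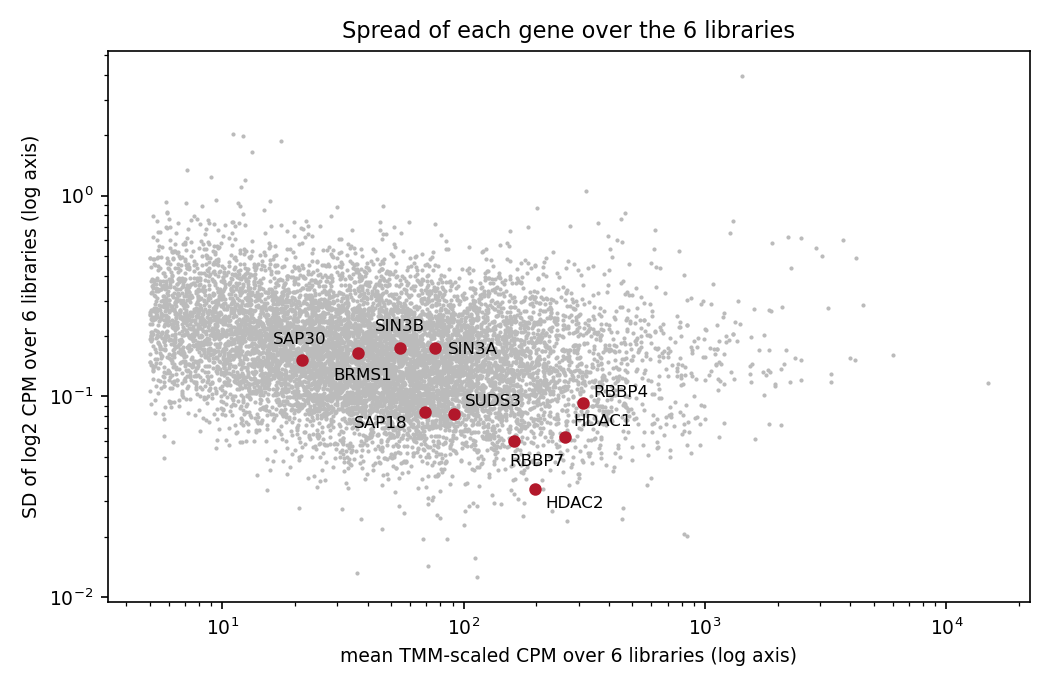
SD of log2 CPM over the 6 libraries against mean CPM, both on log axes, for 10250 genes (gray) and the 10 subunit genes (red). HDAC2 lies near the lower edge of the cloud at an SD of 0.03, and SIN3A, SIN3B, BRMS1 and SAP30 lie inside it at 0.15 to 0.17.

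The other genes of the pathway gave few calls as well. Among 15 further SIN3-associated genes, 0 passed in any plasmid comparison in edgeR and 0 had an unadjusted p under 0.05. Their median log2 fold changes were -0.04 for MXD3 against EV, -0.06 for the fusion against EV and -0.09 for the fusion against MXD3. The smallest p in each of these belonged to GATAD1 (log2 fold change -0.18 ± 0.16), ING2, a reader of methylated histone H3 (-0.29 ± 0.22), and EMSY (-0.21 ± 0.14). Between replicates, 4 of these 15 were called, all lower in replicate 2, beside 29.2% of all genes called in either direction and 16.1% lower (SAP130, ING1, SINHCAF and GATAD1, log2 differences -0.40, -0.43, -0.28 and -0.22). SAP130 was at 82.7, 86.1 and 79.4 CPM in the replicate 1 libraries of EV, MXD3 and STIM1::MXD3 and at 66.2, 63.8 and 58.8 CPM in replicate 2. The difference between the core and further genes was not tested.

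Corepressors that share subunits with SIN3 were also without a call between plasmids. None of 10 NuRD, 7 CoREST and 6 NCOR complex genes passed in edgeR. The NuRD remodeller CHD3 had a log2 fold change of -0.26 ± 0.11 with the fusion (edgeR adjusted p = 1.00) and MTA1 one of -0.19 ± 0.19 with MXD3. In CoREST, HMG20B was at -0.17 ± 0.12 with the fusion. CHD3 was at -0.16 ± 0.11 between the fusion and MXD3. Between replicates, 2 NuRD genes were higher and 2 lower, 4 CoREST genes were lower, among them RCOR3 (-0.67 ± 0.09), and 1 NCOR gene was called in each direction, beside 13.1% of all genes higher and 16.1% lower.

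Other enzymes of histone acetylation and partners of the RBBP proteins likewise gave no call between plasmids. None of the 9 other deacetylase genes, 10 genes for acetyltransferases and TRRAP, or 9 genes of other RBBP complexes passed in edgeR. HDAC5 was at -0.42 ± 0.19 with MXD3 and -0.28 ± 0.19 with the fusion, and HDAC11 at 0.25 ± 0.15 in the fusion against MXD3. All 10 genes of the list of acetyltransferases and TRRAP had negative estimates with the fusion (median -0.17), beside 52.1% of all genes above 0. The smallest p there was for KAT6A (-0.19 ± 0.11). KAT5 was at -0.41 ± 0.24 with MXD3, and EP300, a coactivator acetyltransferase, at -0.35 ± 0.12 in the fusion against MXD3 (edgeR unadjusted p = 0.0243, adjusted p = 1.00). All 10 genes of that list were also below 0 in replicate 2 against replicate 1. Of these, 6 of 10 were called lower, including KAT5 (-0.44 ± 0.09), beside 16.1% of all genes. The PRC2 subunit EED was at 0.22 ± 0.13 with MXD3. The remodeller SMARCA1 was at -1.11 ± 0.38 with the fusion and -0.77 ± 0.38 in the fusion against MXD3, at a level of only 0.636 to 1.59 CPM. Of the 7 genes of the MXD and MAX network, only MXD3 itself, which the plasmids carry, was called between plasmids (log2 fold changes 7.80 and 7.51 against EV, edgeR adjusted p = 4.38e-05 and 5.23e-05; -0.29 ± 0.15 between the constructs), while MXD1 and MXI1 were lower in replicate 2.

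The promoters of the subunit genes were searched for the letters that MXD and MYC proteins recognise with MAX, the E-box CACGTG, on both strands. RefSeq windows of GRCh38.p14, from 250 bases before to 50 after each annotated start, were matched by symbol for 9 of the 10 genes, in 12 windows. An E-box lay in 1 of the 12 windows (8.33%), beside 7.26% of all 35116 windows and 8.27% of windows of genes in the count tables. It belonged to RBBP4, 237 bases before the start. The first 50 bases of that window, on the plus strand at chr1:32650958-32651007, are shown because they hold the only E-box found, in capitals:

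RBBP4: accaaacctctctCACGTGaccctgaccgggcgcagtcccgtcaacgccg

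The letters CCAAT, a common promoter element, were in 8 of 12 windows (66.7%) on either strand. The shares were 34.6% of all windows and 34.8% of windows of genes in the count tables. CCGGAA, the core of many ETS factor sites, was in 3 of 12 (25.0%), beside 17.2% and 21.0% in the same order. None of these matches overlapped the E-box. SIN3A, RBBP4 and RBBP7 each gave 2 of the CCAAT windows, and SIN3B and HDAC1 gave 1 each. The share of windows is therefore not a share of genes. The windows of RBBP4 overlap, so 1 of its elements was counted in both. SIN3A has 2 windows, and the one nearer the gene body holds 3 CCAAT elements, the most of any window here. Its first and last lie 227 and 66 bases before the start. The stretch that spans them, 186 bases on the minus strand at chr15:75451742-75451927, is shown since SIN3A had the largest estimate among the subunits that were higher with MXD3, with CCAAT or its reverse complement in capitals:

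SIN3A: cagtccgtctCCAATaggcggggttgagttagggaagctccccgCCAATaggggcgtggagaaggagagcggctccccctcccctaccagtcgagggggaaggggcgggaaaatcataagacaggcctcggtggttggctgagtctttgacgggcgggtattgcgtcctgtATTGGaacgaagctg

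The windows of the subunit genes were rich in G and C, with a median of 67.8% and 28 CpG pairs, beside 58.7% and 14 for all windows and 62.3% and 21 for windows of genes in the count tables. SIN3B was the exception, at 41.0% and 4 CpG pairs in its only window. That window, which also gave its CCAAT match, surrounds a start annotated inside the gene, 33876 bases past the first base of SIN3B in RefSeq, and the window at the gene's first base was not searched. These matches describe letters within the windows, and no binding was measured.

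Genes whose pattern over the 6 libraries was most like the mean of the subunits were sought among the 10126 genes with a symbol whose mean CPM was 5 or more. The 10 genes did not share 1 pattern. Their pairwise r ran from -0.950 (SIN3A with BRMS1) to 0.936 (HDAC1 with BRMS1). Their mean moved little, from -0.038 in MXD3 replicate 1 to 0.022 in STIM1::MXD3 replicate 1 on the log2 scale. PPP2R3C (Pearson r = 0.997), SNRPD2 (0.985) and HOXB7 (0.985) lay closest to the mean of the 10 centred log2 values, and 71 genes exceeded 0.9. For SIN3A alone the closest were POLQ (r = 0.999), SHPK (0.993) and DHX33 (0.993), with 179 genes above 0.9. These are descriptions over 6 libraries that share plasmid groups and replicate numbers. How many genes would exceed 0.9 without any relation to the subunits was not tested.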

How the data were processed

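RNA-seq was analysed for 6 K562 libraries. The authors deposited raw counts per NCBI Gene identifier, 1 table per library, not normalised; the submitters' processing notes name HISAT2 2.2.1, featureCounts 2.0.1 and hg19. The study's methods name a further RNA-seq pipeline without tying it to these counts. Strand use and annotation are not given in the sources used here. Among genes with 1 to 39 counts, 59.8% to 67.3% of values were even, so mates of a read pair may have been counted separately. Symbols matched 23696 of 25702 identifiers (92.2%). Genes kept by filterByExpr were fitted in edgeR 4.0.16 (R 4.3.3; TMM, quasi-likelihood test, two-sided, 1 coefficient per plasmid, all 6 libraries), with DESeq2 1.42.0 as an alternative and a threshold of 0.05. The replicate comparison used group plus replicate number. Log2 CPM used a prior count of 2. The code was tested on simulated data. Replicates are described by the study as independent transfections; p-values measure the spread between these libraries. Lengths and overlaps came from GENCODE on GRCh37, and pseudogenes from RefSeq genes named after a subunit gene. Settings varied were the replicate block, tool, scaling, filter, libraries fitted, counts divided by 2, and each library left out. The genes and lists were chosen with earlier results of these data known. Named genes were all 10 subunits, the gene with the smallest p in each list and plasmid comparison, called list genes and the closest 3 patterns; some list genes named by this rule are not reported here. Genes named for a difference between replicates, SMARCA1's level and the paralog ratios were chosen after their values were seen.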

Additional observations from a re-analysis of the deposited data

Results flagged for a closer look

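SAP18 moved in opposite directions with the constructs in every same-numbered pair: it was higher with STIM1::MXD3 than with EV and lower with MXD3 than with EV. The difference between the constructs was 0.13 on the log2 scale (95% interval -0.17 to 0.42, edgeR adjusted p = 1.00), so the test of the difference itself did not pass. SAP18 was at 70.4 and 73.1 CPM with the fusion, 61.9 and 69.6 with MXD3, and 67.9 and 71.4 with EV, so each construct's libraries overlapped those of EV. Neither difference from EV passed the test (log2 fold change 0.04 with the fusion and -0.08 with MXD3, edgeR adjusted p = 1.00 for both), and the one with MXD3 turned to 0.013 without MXD3 replicate 1. Opposite directions in both pairs were found for 1 of the 10 subunit genes, beside 4.93% of all genes tested.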

How the results depend on the processing

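The subunit genes gave 530 comparisons of a log2 fold change with another setting, of which 485 kept their direction and side of the threshold, 44 turned sign and 1 newly passed it (SUDS3 between replicates, log2 difference 0.20, edgeR adjusted p = 0.0434, with total counts). None of the sign changes belonged to SIN3A or BRMS1 with MXD3. The cause was not tested.

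The same replicate numbers occur in every group, and deviations from the group means of same-numbered libraries correlated across all genes tested (r = 0.270 between EV and MXD3, 0.364 between EV and the fusion, and 0.450 between MXD3 and the fusion; in the same order 0.621, 0.707 and 0.792 among 10250 genes whose mean CPM reached 5), though not across the 10 subunit genes (-0.10, -0.19 and -0.04). The labels do not say that a number marks a shared day, so a pairing is not given by the design. With the replicate block, edgeR called 3 genes for the fusion against EV, 45 for MXD3 against EV and 1 for the fusion against MXD3, and DESeq2 with the block called 19, 238 and 5, none of them a subunit gene.

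DESeq2 without the block called 3, 3 and 1 genes. Without the filter on low counts, edgeR called 2 genes for the fusion against EV and 1 for the fusion against MXD3, SAP30 with MXD3 was at 0.0011, and the replicate differences of HDAC1 and HDAC2 were 0.0087 and 0.0079. With total counts, 6 of 10 genes were above 0 with MXD3 (median 0.021), with SAP30 at 0.039, SUDS3 at 0.0055 and RBBP7 at 0.036, and the fusion against MXD3 gave -0.0033 for HDAC2 and -0.011 for RBBP4. Between replicates, total counts gave 1 called gene and 8 of 10 above 0 (median 0.063), with HDAC1 at 0.063, HDAC2 at 0.063, RBBP7 at 0.042 and BRMS1 at 0.032.

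Leaving out 1 library at a time, genes called ranged from 1 to 2 for MXD3 against EV and from 2580 (without STIM1::MXD3 replicate 1) to 4424 between replicates. The median of the 10 genes ranged from 0.0073 to 0.071 for the fusion against EV and from -0.086 to 0.023 for MXD3 against EV, where 3 to 7 of 10 were above 0, as were 4 to 7 between replicates. Log2 fold changes for the fusion against EV ranged from -0.015 to 0.22 for SIN3A, -0.42 to 0.015 for SIN3B, -0.045 to 0.0085 for HDAC1, -0.042 to 0.35 for SAP30 and -0.14 to 0.019 for SUDS3. Those for MXD3 against EV ranged from -0.042 to 0.041 for SAP30, -0.18 to 0.013 for SAP18, -0.14 to 0.064 for SUDS3 and -0.045 to 0.033 for RBBP7. Those for the fusion against MXD3 ranged from -0.30 to 0.14 for SIN3B, -0.041 to 0.35 for SAP30, -0.13 to 0.075 for SUDS3 and -0.051 to 0.094 for RBBP4. Replicate differences ranged from -0.10 to 0.21 for SIN3B, -0.040 to 0.036 for HDAC1, -0.015 to 0.025 for HDAC2, -0.20 to 0.062 for SAP30, -0.058 to 0.033 for RBBP7 and -0.099 to 0.024 for BRMS1.

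Where a group was left with 1 library, that library was assumed to vary like the others. The lengths behind the order of levels were chosen after seeing the data.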
